A study of Mus musculus with 4 samples.

Results

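A set of 10 genes is described here, the lysosomal proteases Ctsd, Ctsa, Ctsb, Ctsl, Ctsh, Ctsc, Ctsk, Ctss and Ctsz, and the acid phosphatase gene Acp5. They were taken by their gene name in the scanner files, which gave 13 probes for the 10 genes among 39397 probes for 31806 names with a value on every array. The names were picked after array results had been seen, since several of these genes stood far apart between arrays, so all differences below are descriptions and no test was run. RNA came from mouse embryonic fibroblasts (MEFs) of C57BL/6J background in the logarithmic phase of growth, cultured in medium with fetal bovine serum. There were 4 arrays, all on 1 slide read in 1 scan, with 1 array for each genotype, and hence no ratio below has a replicate check. The first comparison set CycG2-/- cells (G2KO) beside CycG2+/+ cells, and the second set CycG1-/- CycG2-/- cells (DKO) beside their own WT. CycG1 and CycG2 are the proteins of Ccng1 and Ccng2, 2 atypical cyclins, and both deletions are carried in the germline, so that they are present in every cell of a culture. How many embryos each culture came from was not given in the sources used here.

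Every direction in the first comparison rests on its labels and turns where these are exchanged, so its arrays go by the names G2KO-labelled array and WT-labelled array. Among the study's own list of genes changed in G2KO MEFs, the directions run opposite to those obtained from these labels. The receptor gene Pdgfra, for example, is down in that list but was at least 244-fold higher on the G2KO-labelled array. The study describes its G2KO comparison as dye-swapped, whereas these arrays are single color, so its list may not come from them. Ccng1, which is intact in both genotypes of that comparison, had a level of 1.98 on the G2KO-labelled array and 9.45 on the WT-labelled array. In DKO it was not well above background, at 0.00685, with 1.66 in the DKO WT. The probe for Ccng2 gave levels of 0.0910, 0.104, 0.0619 and 0.0806 on the G2KO-labelled array, the WT-labelled array, the DKO array and the DKO WT array, so it did not set knockout arrays apart from WT arrays. Whether the probe lies in the deleted part of Ccng2 was not determined. A level here is the signal of a probe divided by the 75th percentile of signals on its array. Levels are compared only within a probe, except in the sums over cell type markers. Among 24197 probes that were well above background throughout, log2 ratios had an SD of 1.005 between both WT arrays, 0.859 between the G2KO-labelled array and the WT-labelled array, 0.535 between the G2KO-labelled array and the DKO WT array, 1.02 between DKO and its WT, and 1.04 between the G2KO-labelled array and the DKO array. By this SD the G2KO-labelled array was nearest to the WT array of the other comparison. The SD between WT arrays named below is that of 1.005, as labelled. With the labels of the first comparison exchanged, the G2KO-labelled array would be the other WT array, and this SD would be 0.535. Which array serves below as the other WT control rests on the labels as well. Between spots of the same probe on an array, the median SD was 0.0752 to 0.122 on the log2 scale, and the error that the scanner software gave for the member probes well above background was 10.0% to 18.8% of the signal.

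Cathepsins are proteases that are made as inactive proenzymes, sorted to the lysosome largely through mannose 6-phosphate receptors, and activated at acid pH. Most are cysteine proteases of the papain family, while cathepsin D is an aspartic protease and cathepsin A a serine carboxypeptidase. Fibroblasts use the common members for general protein turnover. Cathepsin K and tartrate-resistant acid phosphatase, the product of Acp5, are best known from osteoclasts, where they act in the breakdown of bone matrix.

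The promoters below are those of the 4 genes with the widest differences, Acp5, Ctsk, Ctsc and Ctsz, and that of Ctsd, whose level hardly varied. They were read from RefSeq's GRCm38.p6 and run from 250 bases before to 50 bases after a start site, 5′ to 3′. Capitals mark matches, on either strand, to CACGTG (the E-box of the lysosomal gene network), to CACATG, to TCACNTGA (the M-box, bound by the MITF and TFE family), to TGANTCA (the AP-1 site) or to GAGGAA (the core of the PU.1 site), where an M-box may overlap an E-box.
Acp5, start 3, chr9:22130549-22130848, strand -: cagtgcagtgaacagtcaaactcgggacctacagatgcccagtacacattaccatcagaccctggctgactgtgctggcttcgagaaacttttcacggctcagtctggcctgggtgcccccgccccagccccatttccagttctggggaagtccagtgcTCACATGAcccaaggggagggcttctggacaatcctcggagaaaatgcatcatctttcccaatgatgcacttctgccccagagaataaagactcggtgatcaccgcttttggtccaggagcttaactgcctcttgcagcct
Ctsk, chr3:95498960-95499259, strand +: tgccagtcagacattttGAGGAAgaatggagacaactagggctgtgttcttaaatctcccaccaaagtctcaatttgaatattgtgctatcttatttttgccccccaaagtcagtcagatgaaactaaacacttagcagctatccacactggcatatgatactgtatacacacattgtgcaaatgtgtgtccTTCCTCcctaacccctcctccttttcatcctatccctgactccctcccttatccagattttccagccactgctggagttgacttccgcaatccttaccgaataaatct
Ctsc, chr7:88277835-88278134, strand +: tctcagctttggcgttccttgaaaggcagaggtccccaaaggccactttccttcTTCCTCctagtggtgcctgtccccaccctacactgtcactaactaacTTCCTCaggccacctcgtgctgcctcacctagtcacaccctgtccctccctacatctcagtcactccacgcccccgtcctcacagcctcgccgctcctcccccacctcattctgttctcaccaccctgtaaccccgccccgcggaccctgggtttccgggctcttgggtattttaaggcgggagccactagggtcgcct
Ctsz, chr2:174438990-174439289, strand -: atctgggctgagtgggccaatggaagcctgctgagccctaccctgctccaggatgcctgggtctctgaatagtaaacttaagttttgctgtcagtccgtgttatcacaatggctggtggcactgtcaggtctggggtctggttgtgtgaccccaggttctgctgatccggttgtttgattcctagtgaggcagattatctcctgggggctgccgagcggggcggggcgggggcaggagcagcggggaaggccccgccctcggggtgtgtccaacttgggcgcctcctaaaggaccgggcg
Ctsd, chr7:142387778-142388077, strand -: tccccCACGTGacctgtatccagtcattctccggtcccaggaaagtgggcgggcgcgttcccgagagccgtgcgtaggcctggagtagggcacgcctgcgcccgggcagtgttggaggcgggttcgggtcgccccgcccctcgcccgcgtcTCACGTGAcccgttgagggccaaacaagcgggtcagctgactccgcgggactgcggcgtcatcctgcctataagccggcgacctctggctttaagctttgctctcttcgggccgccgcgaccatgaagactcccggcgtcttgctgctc

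Of the 10 genes, 8 had at least 1 promoter in that table, with 11 promoters in all, and Ctsb and Ctsh had none. Start 3 of Acp5 held TCACATGA, beginning 91 bases before the start site, and neither of the other Acp5 starts held any of these motifs. Ctsd held CACGTG at 2 places, one of them inside an M-box, and start 2 of Ctsa held CACGTG at 2 places and an M-box at 3. Ctsk, Ctsc and Ctss each held GAGGAA or its complement at 2 places. Ctss also held an M-box with CACATG inside it, Ctsl held CACGTG at 1 place, and Ctsz held none of the motifs. Over all 32851 promoters of this length, 7.15% held CACGTG, 14.2% CACATG, 4.18% the M-box, 7.81% the AP-1 site and 28.3% GAGGAA. The matches are descriptions of the letters only.

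In DKO MEFs, Acp5, Ctsk and Ctsc had far higher levels than in their WT, while in the first comparison Ctsz differed most, with a low level on the WT-labelled array, and Ctsh and Ctsc also passed 4-fold. Ctsd, Ctsa, Ctsb and Ctsl, the abundant lysosomal proteases of fibroblasts, stayed within 4-fold on all 4 arrays. Ctss was not well above background on any array. Of the 13 probes, 10 were well above background on all 4 arrays, 2 on some and 1 on none, and the plot of levels by array shows all of them.

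**Figure D1:**
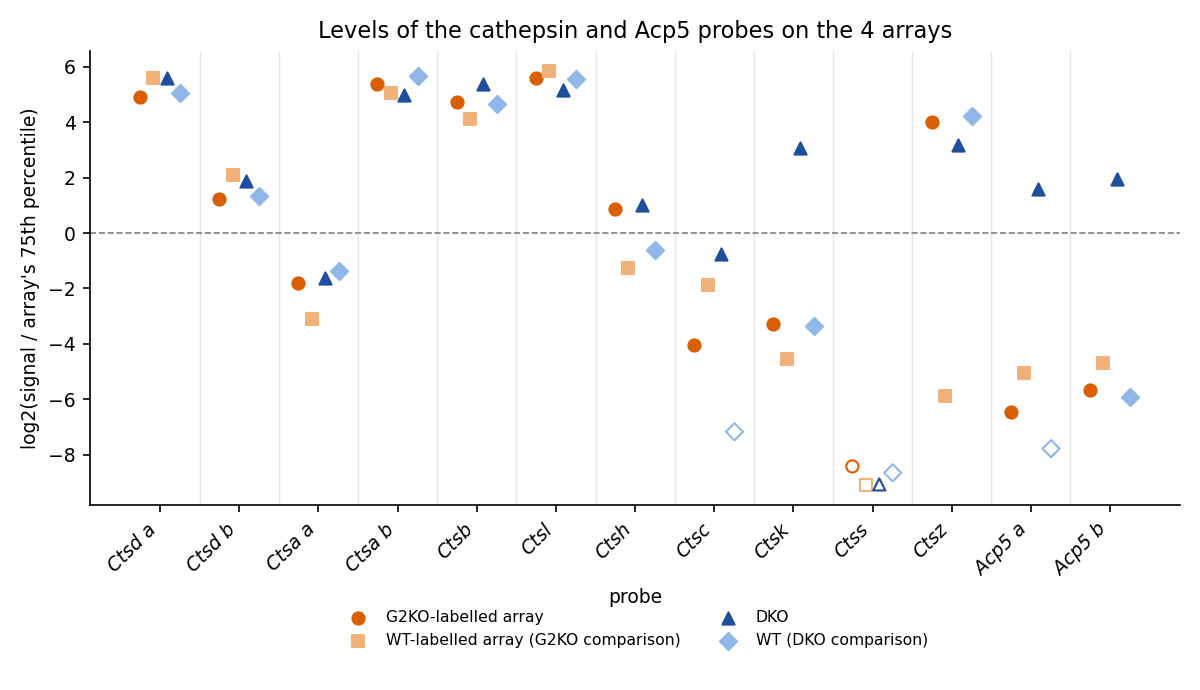
Log2 level (signal over the array's 75th percentile, vertical axis) of each of the 13 probes on the 4 arrays, with 1 point per array and open symbols for probes not well above background. Levels of different probes cannot be set against each other, but within a probe Ctsk and Acp5 are high on the DKO array alone, Ctsz is low on the WT-labelled array alone, and the 4 points of Ctsd, Ctsb and Ctsl lie close together.

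Between DKO and its WT, 12 of the 13 probes could be compared and 4 of them, from 3 genes, were at least 4-fold higher in DKO, while 0 were at least 4-fold lower. Over all 28378 probes compared, 3.93% were at least 4-fold higher and 3.99% at least 4-fold lower. Between the G2KO-labelled array and the WT-labelled array, 2 of 12 probes were at least 4-fold higher and 1 was lower, beside 3.58% and 1.92% of 28272 probes. Between the WT arrays themselves, 1 member probe was at least 4-fold higher in the WT of the DKO comparison and 1 was lower, beside 4.57% and 2.65% of 27466 probes. Since the genes were picked on these same values, nothing is read from the counts. The median log2 ratio over the 12 probes was 0.63 in DKO, against 0.02 over all probes, and 0.05 on the G2KO-labelled array, against -0.16 over all probes.

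**Figure D2:**
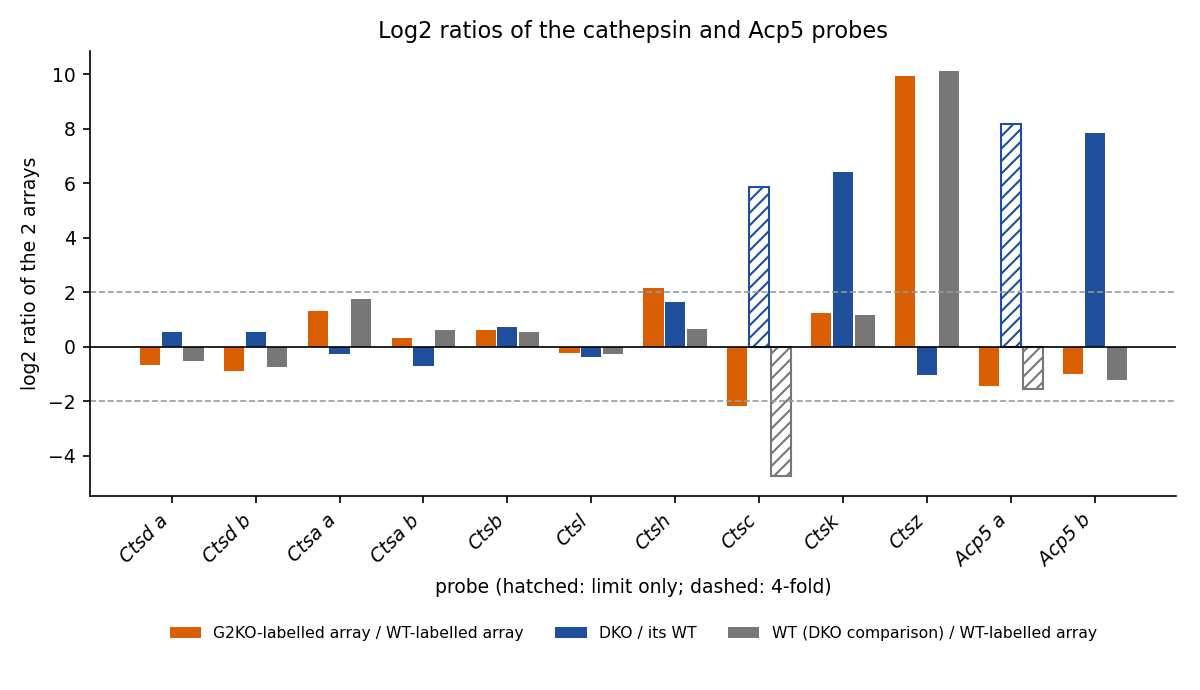
Log2 ratio (vertical axis) of 12 probes in 3 pairs of arrays: G2KO-labelled over WT-labelled array, DKO over its WT, and the WT of the DKO comparison over the WT-labelled array. Hatched bars are limits, where 1 array of the pair was dim, dashed lines mark 4-fold, and Ctsc passes 4-fold at -2.16 and 5.86 in the first 2 pairs, of which the former is 2.16 with the labels of the first comparison exchanged.

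Ctsd encodes the main aspartic protease of the lysosome. Its probe at chromosome 7, 149561962 to 149562021 (build mm9), had levels of 30.1 on the G2KO-labelled array, 48.3 on the WT-labelled array, 48.5 on the DKO array and 33.4 on the DKO WT array. Its other probe, whose match spans 149566847 to 149568505, had levels of 2.34, 4.26, 3.70 and 2.53 in the same order. Both probes were lower on the G2KO-labelled array than on the WT-labelled array, with log2 ratios of -0.68 and -0.87, and higher in DKO than in its WT, with 0.54 and 0.55. All 4 ratios were smaller in size than the SD of 1.005 between the WT arrays as labelled. With the labels exchanged, that SD would be 0.535, and all 4 would be larger.

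Ctsa encodes cathepsin A, which also protects beta-galactosidase and neuraminidase in the lysosome. Its brighter probe, at chromosome 2, 164665023 to 164665082, had levels of 41.6, 33.2, 31.4 and 51.1 on the G2KO-labelled array, the WT-labelled array, the DKO array and the DKO WT array. The dimmer probe, at 164666433 to 164666492, had levels of 0.284, 0.115, 0.324 and 0.390. Both probes had the same direction in each comparison but not the same size. On the G2KO-labelled array the log2 ratio was 0.33 by the brighter and 1.31 by the dimmer probe, and in DKO it was -0.70 and -0.27. The value of 1.31 was the only one of these to exceed the SD between WT arrays.

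Ctsb and Ctsl encode the abundant endopeptidases of the papain family. The Ctsb probe (chromosome 14, 63761906 to 63761965) had levels of 26.7 on the G2KO-labelled array, 17.3 on the WT-labelled array, 41.1 on the DKO array and 25.2 on the DKO WT array. For Ctsl (chromosome 13, 64465287 to 64465346) the levels were 48.7, 56.9, 35.8 and 46.9. Ctsb was highest and Ctsl lowest on the DKO array, with log2 ratios of 0.71 and -0.39 over WT. The G2KO-labelled array gave log2 ratios of 0.63 and -0.22, of which that of Ctsl turned to 0.27 without scaling and 0.19 with quantile normalization, and no gap between neighbours in the order of the 4 levels exceeded the SD between WT arrays for either gene.

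Ctsh encodes an aminopeptidase of the same family. Its probe (chromosome 9, 89970828 to 89970887) had levels of 1.85 on the G2KO-labelled array, 0.413 on the WT-labelled array, 2.03 on the DKO array and 0.651 on the DKO WT array. Both knockout-labelled arrays were above both WT arrays, with a log2 ratio of 2.16 in the first comparison and 1.64 in DKO. With the labels of the first comparison exchanged, the former is -2.16, opposite to DKO in direction. With the other WT array as control, Ctsh fell short of 4-fold on the G2KO-labelled array and passed it in DKO, at 2.30. Only the gap between the lower of the knockout-labelled arrays and the higher of the others exceeded the SD between WT arrays. Of the member probes that passed 4-fold on the G2KO-labelled array, Ctsh and Ctsc passed by the least, both at 2.16 in size, and the largest ratio short of it was 1.42 in size, at Acp5.

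Ctsc encodes dipeptidyl peptidase 1, which activates the granule proteases of mast cells, neutrophils and cytotoxic lymphocytes. Its probe (chromosome 7, 95458436 to 95458495) had levels of 0.0613 on the G2KO-labelled array, 0.273 on the WT-labelled array and 0.593 on the DKO array. On the DKO WT array it was not well above background, at 0.00695. Each gap between neighbours in the order of the 4 levels was larger than the SD between WT arrays. That between DKO and the WT-labelled array exceeded it only slightly, at 1.12, and the lowest gap rests on a dim value. Ctsc was 4.46-fold lower on the G2KO-labelled array than on the WT-labelled array, and at least 57.9-fold higher in DKO than in its WT. With normexp background correction the latter log2 ratio was 3.85 in place of the limit of 5.86. Such a limit divides by the lowest signal that was well above background on the dim array, which was 0.0102 times the 75th percentile on the DKO WT array. Ctsc was also at least 26.7-fold lower on the DKO WT array than on the WT-labelled array, so both WT arrays, as labelled, differed widely at this gene. Against the WT-labelled array, DKO was only 2.17-fold higher, and the G2KO-labelled array was at least 5.98-fold higher than the DKO WT array. With the other WT array as control, as labelled, Ctsc thus lost its 4-fold difference in DKO and changed direction on the G2KO-labelled array. With the labels exchanged, the other WT array would be the G2KO-labelled array, where Ctsc was at 0.0613, against 0.593 in DKO.

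Of 8 mast cell and basophil markers, 6 were well above background on the DKO array, 2 on the DKO WT array, 2 on the WT-labelled array and 1 on the G2KO-labelled array. Their summed levels were 2.68, 0.215, 0.362 and 0.133 in that order. Such a sum, here and below, adds levels of different probes, only of those well above background on the array. It therefore covers different probes on each array and does not measure the share of a cell type. The granule protease genes Mcpt8 and Mcpt4 were at least 138-fold and at least 87.5-fold higher in DKO than in its WT, whereas Cpa3, the carboxypeptidase of mast cells, was not well above background on any array. The part of these cells in the level of Ctsc was not tested. In RNA from a whole culture, fewer cells of a type and less RNA per cell cannot be told apart.

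Ctsk encodes a collagen-degrading protease. Its probe (chromosome 3, 95313165 to 95313224) had levels of 0.103 on the G2KO-labelled array, 0.0432 on the WT-labelled array, 8.35 on the DKO array and 0.0967 on the DKO WT array. The DKO level alone was high, 86.4-fold above its WT, and the gap of 6.35 on the log2 scale to the next array was the widest in the order. Between the G2KO-labelled array and the WT-labelled array the difference was 2.37-fold. Ctss (chromosome 3, 95360245 to 95360304), the neighbouring gene, whose protease trims the invariant chain in antigen-presenting cells, was not well above background anywhere, at 0.00293, 0.00185, 0.00187 and 0.00249, and no ratio is given for it.

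Ctsz encodes a carboxypeptidase, also called cathepsin X. Its probe (chromosome 2, 174253228 to 174253287) had levels of 16.2 on the G2KO-labelled array, 0.0168 on the WT-labelled array, 9.02 on the DKO array and 18.7 on the DKO WT array. Thus 3 arrays were high and the WT-labelled array alone was low, with a gap of 9.07 on the log2 scale below the next. The level was 966-fold higher on the G2KO-labelled array than on the WT-labelled array, and 1110-fold higher on the DKO WT array than on the WT-labelled array. In DKO it was 2.07-fold lower than in its WT, a log2 ratio of -1.05. With the DKO WT array in place of the WT-labelled array, the G2KO-labelled array was 1.15-fold lower, so the wide difference of the first comparison rests on the WT-labelled array.

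Acp5 encodes an iron-containing phosphatase. Of its 2 probes on chromosome 9, which share 45 of 60 bases and are therefore not independent, the one at 21931175 to 21931234 had levels of 0.0113 on the G2KO-labelled array, 0.0303 on the WT-labelled array and 2.99 on the DKO array, but was dim on the DKO WT array, at 0.00454. The probe at 21931190 to 21931249 had levels of 0.0195, 0.0388, 3.85 and 0.0167 and was well above background on all 4 arrays. By both probes Acp5 was high on the DKO array alone. The latter probe was 230-fold higher in DKO than in its WT, and the former at least 292-fold. Against the WT-labelled array, the DKO level was 99.2-fold higher by the latter and 98.6-fold by the former. Acp5 was lower on the G2KO-labelled array than on the WT-labelled array, 1.99-fold and 2.68-fold by the latter and the former.

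**Figure D3:**
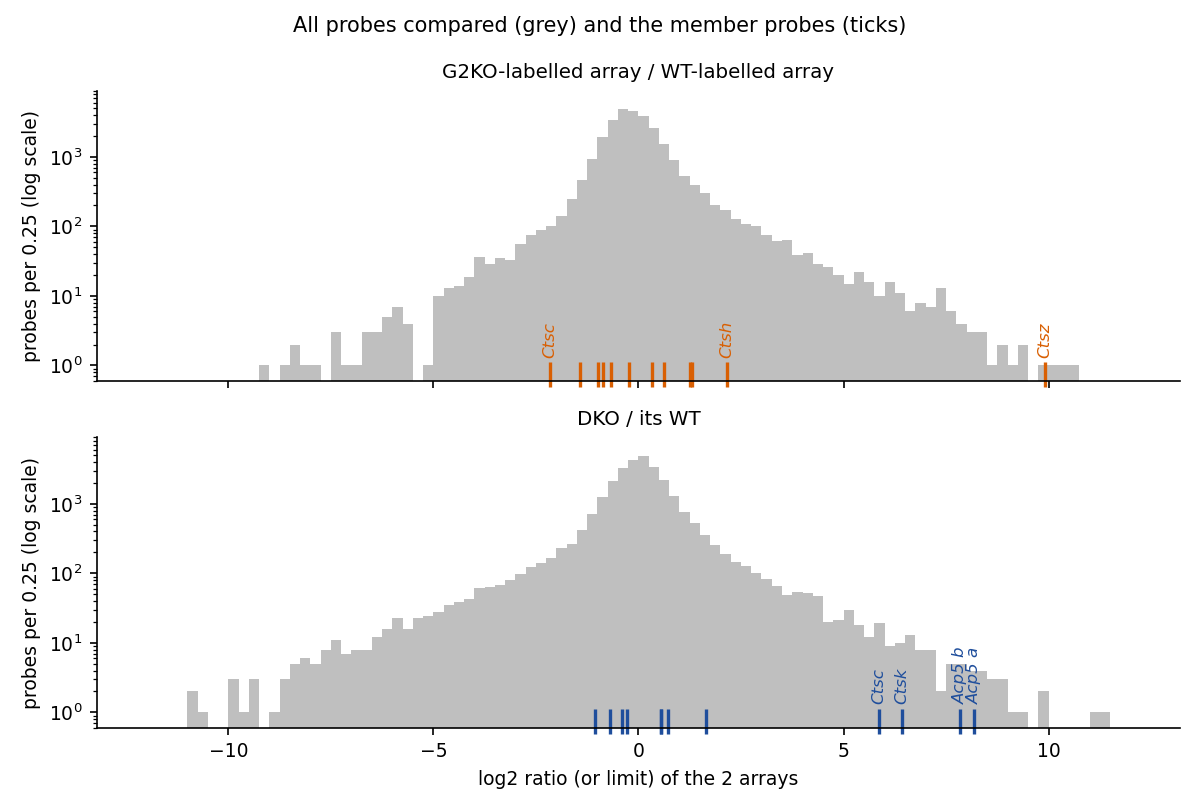
Number of probes (vertical axis, log scale) by log2 ratio or limit (horizontal axis) for the G2KO-labelled array over the WT-labelled array (top) and DKO over its WT (bottom), with a tick for each of 12 member probes and names for those past 4-fold. Ctsz at 9.92 in the top panel, and both Acp5 probes in the bottom panel, lie in the thin upper tail.

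The genes whose levels over the 4 arrays followed that of Acp5 most closely were sought among 24491 other genes, as the distance between log2 levels centred on each gene's mean over the arrays. Dim values were set to the floor of their array, so distances that rest on them are approximate. The nearest were Cyp2s1, a cytochrome P450, at a distance of 0.32, Msln, the mesothelial surface protein mesothelin, at 0.44, Plac8 at 0.61, 1100001E04Rik at 0.64 and 2210023G05Rik at 0.70, of which the last pair was dim on the G2KO-labelled array and the DKO WT array. Ctsk was at 1.95 and stood at rank 64, the highest of the members. For Ctsz the nearest were Cdkn2b at 0.66 and Cdkn2a at 1.06, which are neighbouring inhibitors of cyclin-dependent kinases, then the collagen receptor Ddr2 at 1.15, Ebf3 at 1.29 and the Y-linked Eif2s3y at 1.58. Cdkn2b and Ebf3 were dim on the WT-labelled array. Eif2s3y had levels of 1.82 on the DKO array and 1.96 on the DKO WT array, a like level on the G2KO-labelled array, and was dim on the WT-labelled array, at 0.00330. The study ascribes higher Xist in its G1KO and G2KO MEFs to the female origin of these cells. As labelled, Eif2s3y ran opposite to that origin. This Y-linked gene was well above background on the G2KO-labelled array and dim on the WT-labelled array. With the labels of the first comparison exchanged, it would be dim in G2KO. The cells of the study's list may not be those of these arrays. In the first comparison, and between the WT arrays, sex of the cells cannot be told apart from other differences. Its part in the level of Ctsz was not tested. The member nearest to Ctsz was Ctsh, at rank 946.

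The label of the cells was set against fibroblast markers. All 12 fibroblast markers were well above background on the G2KO-labelled array, the DKO array and the DKO WT array, and 9 on the WT-labelled array, with summed levels of 452, 323, 512 and 336 in that order. The collagen gene Col1a2 and the filament gene Vim were at 89.9 or more and 55.4 or more on every array. In contrast Pdgfra, a receptor of mesenchymal cells, was at 1.75 on the G2KO-labelled array, not well above background on the WT-labelled array, and at 0.0296 on the DKO array and 5.22 on the DKO WT array. In DKO 5 of the 12 were at least 4-fold lower than in its WT and 1 was higher. Over all genes, 4.03% were lower and 4.04% higher. The 5 were Postn, 186-fold, Pdgfra, 176-fold, Pdgfrb, 13.1-fold, S100a4, 6.40-fold, and Thy1, at a level of 3.42 against 61.5. Dcn was 16.6-fold higher. These differences stood on the array where Acp5 and Ctsk were high, and their part in those levels was not tested. The low level of Ctsz stood on the array on which Pdgfra, Lum and Fap were not well above background. Of the 12, 6 were at least 4-fold higher on the G2KO-labelled array than on the WT-labelled array and 0 lower. Over all genes, 3.71% were higher and 2.02% lower. Among the 6 were Thy1, 115-fold, Postn, 19.2-fold, and Pdgfra, by a limit. Low levels of Pdgfra, Thy1 and Postn were thus shared by the DKO array and the WT-labelled array.

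Of 12 mesothelial markers, all 12 were well above background on the DKO array, with a summed level of 150, against 4 on its WT, with 0.768. On the G2KO-labelled array and the WT-labelled array 6 and 4 were, with sums of 1.35 and 1.57. Msln alone made up 100 of the sum on the DKO array and 1.52 of that on the WT-labelled array. Of 7 compared in the first comparison, 4 were at least 4-fold higher on the G2KO-labelled array and 0 lower, beside 3.71% and 2.02% of all genes. These were Krt19, at 18.2-fold, and Krt18, Rspo1 and Bnc1, by limits. Wt1, the transcription factor of the mesothelium, had a level of 8.96 on the DKO array and was dim on all others. In DKO 11 of the 12 were at least 4-fold higher than in its WT, and the exception, Rspo1, was 7.08-fold lower. Over all genes, 4.04% were at least 4-fold higher and 4.03% lower. Of the 11 ratios, all but those of Msln, Krt19 and Bnc1 were limits. The 11 were thus high on the same array as Acp5 and Ctsk, and the part of such cells in those levels was not tested.

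Markers of osteoclasts and macrophages, the cells best known for Acp5 and Ctsk, were measured too, and the part of these cells in those levels was not tested. Of 8 osteoclast markers, 4 were well above background on the DKO array and 5 on its WT, with summed levels of 3.68 and 2.30. The sums on the G2KO-labelled array and the WT-labelled array were 5.44 and 1.19. Itgb3, the integrin beta 3 chain, carried most of these sums on the G2KO-labelled array and the DKO array, with 4.41 and 2.74. Of 5 compared in DKO, Mmp9 alone passed 4-fold, at least 9.97-fold lower than in its WT, beside 4.03% of all genes at least 4-fold lower and 4.04% higher. Of 5 compared in the first comparison, 3 were at least 4-fold higher on the G2KO-labelled array and 0 lower, beside 3.71% and 2.02% of all genes. These were Mmp9, at least 38.7-fold, Itgb3, 7.38-fold, and Nfatc1, 4.16-fold. Against the DKO WT array, Itgb3 was 4.2-fold higher, Mmp9 3.8-fold higher and Nfatc1 1.76-fold lower on the G2KO-labelled array. Calcr, Tm7sf4 and Atp6v0d2, which mark mature osteoclasts, were not well above background on any array. Of 19 macrophage markers, 11, 9, 12 and 10 were well above background on the G2KO-labelled array, the WT-labelled array, the DKO array and the DKO WT array, with sums of 19.4, 12.5, 20.0 and 23.8, most of it from Itgam. Cd14, a receptor for lipopolysaccharide, was highest on the DKO array, at 2.88 and 8.28-fold above its WT, and Cd68 was also highest there, at 0.0308 and at least 3.00-fold above. Lyz1 and Laptm5 were 4.48-fold and at least 4.11-fold lower in DKO than in its WT. Aif1, Fcgr1, Cd163, C1qa, C1qc and Tyrobp were not well above background on any array.

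**Figure D4:**
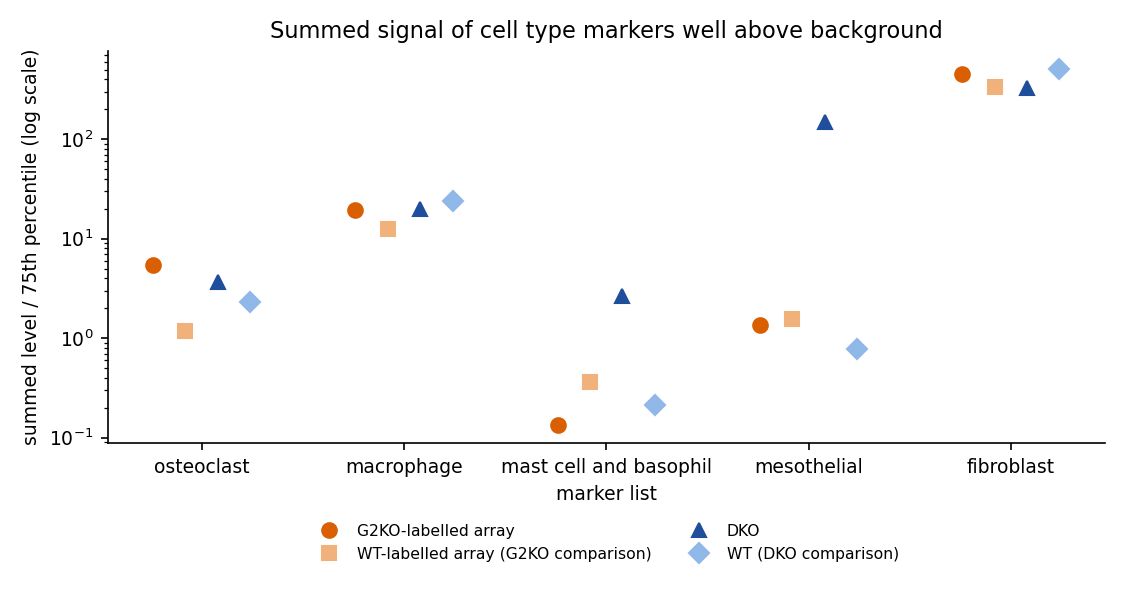
Summed level (vertical axis, log scale) of the markers well above background in each of 5 cell type lists, with 1 point per array. The mesothelial sum on the DKO array is 150, of which Msln makes up 100, against at most 1.57 on the others. Single markers such as Itgb3 and Itgam likewise carry much of the osteoclast and macrophage sums. The sums cover different probes on each array and do not measure the share of a cell type.

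The remaining genes of the lysosome were taken from lists of 109 genes, of which 106 were on the arrays, each by its brightest probe. In DKO, 7 of the 96 that could be compared were at least 4-fold higher and 0 were lower, with a median log2 ratio of 0.33. Over all 22881 genes, 4.04% were at least 4-fold higher and 4.03% lower, with a median of 0.03. Of the 7, Ctse, Ctla2a, Ctla2b and Atp6v1c2 also passed 4-fold in DKO against the WT-labelled array, while Cst6, Sort1 and Atp6v0e2 did not. In the first comparison, 2 of 94 were higher and 1 was lower, with a median of -0.23, beside 3.71% and 2.02% of 22790 genes and a median of -0.17. Without scaling, the median of all genes there was 0.33 and the medians of 6 of the 7 lists with more than 1 gene compared turned positive with it, so list medians are read against that of all genes.

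Other cathepsins were mostly dim. Of 14, 7 could be compared in DKO, where Ctse, an aspartic protease of the gut and immune cells, was at least 4.59-fold higher, at a level of 0.0471 on the DKO array and not well above background on any other. The rest lay within 4-fold, and the median was 0.18. In the first comparison none of 6 passed 4-fold, with a median of -0.42.

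Among 9 inhibitors of cathepsins, 3 of 8 compared were at least 4-fold higher in DKO, with a median log2 ratio of 1.05. Ctla2a and Ctla2b, near-identical genes for inhibitors of cysteine cathepsins whose probes may share targets, both had log2 ratios of 3.40. Ctla2a had levels of 3.20 on the G2KO-labelled array, 0.763 on the WT-labelled array, 21.2 on the DKO array and 2.01 on the DKO WT array. Cst6, cystatin M, was at 1.29, 4.61, 3.94 and 0.926 and thus 4.26-fold higher in DKO. Against the WT-labelled array, Cst6 was 1.17-fold lower in DKO. On the G2KO-labelled array, Ctla2a alone passed 4-fold, at 4.20-fold higher, and the median over 7 was -0.42. Against the DKO WT array, Ctla2a was 1.6-fold higher there.

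Genes for sorting and maturation, 9 in all, included Sort1, the sorting receptor sortilin, with levels of 0.180, 0.385, 0.523 and 0.0691 on the G2KO-labelled array, the WT-labelled array, the DKO array and the DKO WT array. Sort1 was 7.57-fold higher in DKO than in its WT, and the other 8 lay within 4-fold, with a median over the list of 0.58. Against the WT-labelled array, Sort1 was 1.36-fold higher in DKO. In the first comparison none of the 9 passed 4-fold, and the median was -0.52. All 27 lysosomal hydrolases and all 15 membrane proteins lay within 4-fold in both comparisons, with medians of 0.42 and 0.21 in DKO and of -0.16 for either list on the G2KO-labelled array.

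Of the subunits of the V-ATPase, the proton pump that acidifies the lysosome, 24 could be compared. Atp6v0e2 had levels of 0.437 on the G2KO-labelled array, 5.03 on the WT-labelled array, 4.52 on the DKO array and 0.0861 on the DKO WT array, so it was 52.5-fold higher in DKO and, as labelled, 11.5-fold lower on the G2KO-labelled array. The WT arrays differed 58.4-fold at this gene. Against the WT-labelled array it was 1.11-fold lower in DKO, and against the DKO WT array 5.08-fold higher on the G2KO-labelled array. Atp6v1c2 was at 0.0381, not well above background, 0.794 and 0.0506, and was 15.7-fold higher in DKO and at least 5.32-fold higher on the G2KO-labelled array. Against the DKO WT array, Atp6v1c2 was 1.33-fold lower on the G2KO-labelled array. The other 22 lay within 4-fold in both comparisons, with list medians of 0.16 and -0.23. None of the 5 other acid phosphatase genes compared passed 4-fold, with medians of 0.33 in DKO and -0.02 on the G2KO-labelled array. Mitf, the only one of the regulators of lysosomal genes found by name, had levels of 0.238 to 0.276 over the 4 arrays by its brightest probe.

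**Figure D5:**
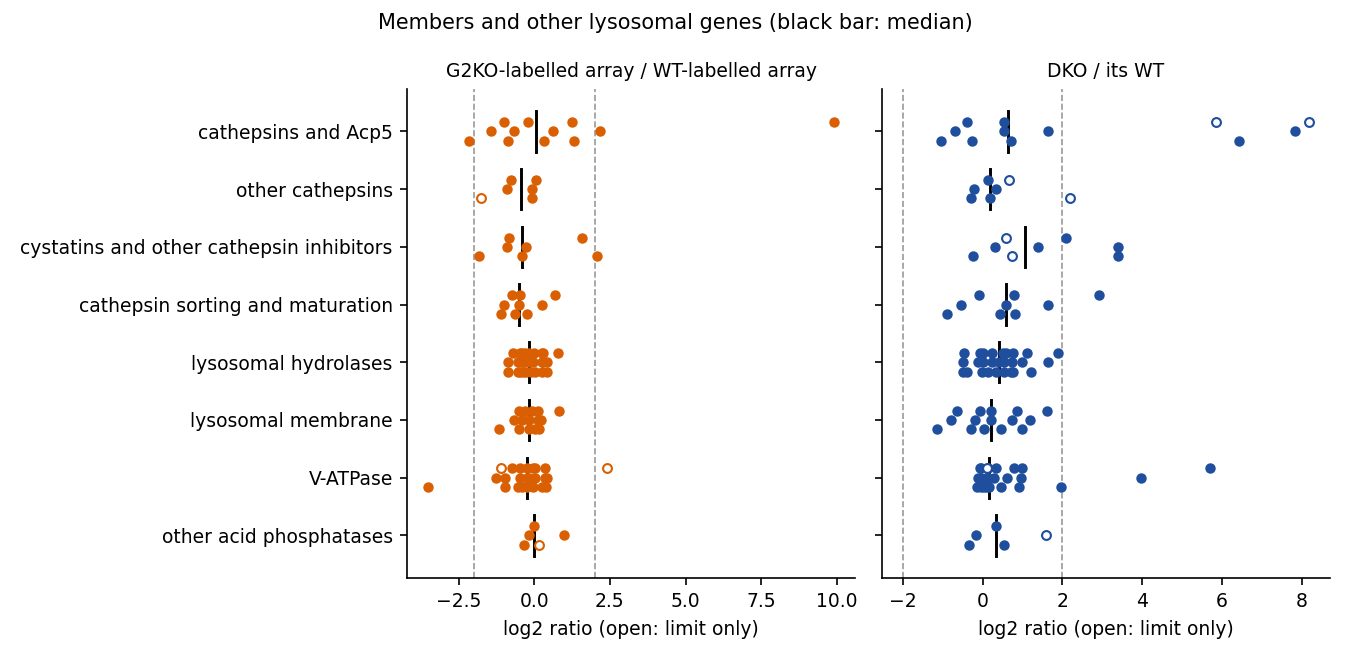
Log2 ratios (horizontal axis) of the member probes and of the genes of 7 other lysosomal lists, 1 point each, for the G2KO-labelled array over the WT-labelled array (left) and DKO over its WT (right), with limits as open points, medians as black bars and 4-fold as dashed lines. The hydrolases and membrane proteins stay inside the dashed lines in both panels, while Atp6v0e2 lies outside them at -3.52 (3.52 with the labels of the first comparison exchanged) and 5.71.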

How the data were processed

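The 4 arrays (Agilent 4x44K, single color, Cy3) were read with Agilent Feature Extraction, version 10.7.3.1 per the file headers and 10.5.1.1 in the submitters' processing notes. The authors deposited gProcessedSignal, a background-subtracted signal intensity on a linear scale, for each spot, and a table of the same intensity values (largest log2 difference 0.0). Probe coordinates are of build mm9. Controls and spots flagged as outliers (107 to 140 of 43020 per array) were left out, and 0 spots were saturated. Signals were divided by the array's 75th percentile, which was 1586 to 2234, and transformed to log2, and spots of a probe were averaged (Python 3.11.15, numpy 2.4.6, pandas 2.3.3). From 65.0% to 72.2% of probes were well above background (gIsWellAboveBG). A probe dim on 1 array of a pair took as its value the lowest signal well above background of that array, or its own if that was higher, its ratio is a limit, and ratios with both arrays dim or with a limit under 1 were not formed. The number of arrays limits the precision, since with 1 array per group no test could be made. Scripts were tested on simulated data. Alternatives were median, no and quantile scaling, normexp background correction with offset 50 (limma 3.58.1, R 4.3.3), no floor, other control arrays, and 2-fold and 10-fold thresholds. All member probes are named, and of each list up to 4 genes past 4-fold by size, and the 5 genes most like Acp5 and Ctsz. Markers and targeted genes are named as checks. Members and lists were chosen with earlier results of these data known.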

Additional observations from a re-analysis of the deposited data

Results flagged for a closer look

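Ctsc was past 4-fold in opposite directions in the knockout comparisons, with a log2 ratio of -2.16 for the G2KO-labelled array over the WT-labelled array and a limit of 5.86 for DKO over its WT. The opposite direction rests on the labels of the first comparison, and with these exchanged the former is 2.16, in the direction of DKO, and no member probe passes 4-fold in opposite directions. Without scaling the former was -1.66 and with normexp -1.79, both short of 4-fold. With 1 array per genotype, the difference between the comparisons was not tested. As labelled, no other member probe passed 4-fold in opposite directions. The DKO WT array, on which the Ctsc probe was not well above background, decides the second value, and against the WT-labelled array the log2 ratio for DKO was 1.12.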

How the results depend on the processing

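No paired analysis was possible because each genotype has 1 array. Of 296 values of member probes under the alternatives, 272 moved by less than the SD between the WT arrays, 21 moved by more and 3 reversed. A reversal was counted only for ratios past 4-fold, so smaller ratios that changed sign stand among the others. In DKO, Ctsz went from -1.05 to 9.07 against the WT-labelled array. On the G2KO-labelled array, the dimmer Ctsa probe went from 1.31 to -0.46 against the DKO WT array. With the DKO WT array as control, the log2 ratios on the G2KO-labelled array became -0.20 for Ctsz and 2.58 for Ctsc, and with the mean of both WT arrays that of Ctsc became 0.21. The count of member probes at least 4-fold apart on the G2KO-labelled array was 3, and became 1 with either of these controls, 6 at 2-fold and 1 at 10-fold. It was 2 without scaling and 2 with normexp, under which Ctsc fell short of 4-fold at -1.66 and -1.79. In DKO the count of 4 became 2 where only probes well above background on both arrays were kept, which leaves out the limits. Between the WT arrays the count of 2 became 1 under that filter and 6 at 2-fold. Against the WT-labelled array, DKO was at 9.07 for Ctsz and 1.12 for Ctsc. As labelled, which cathepsins pass 4-fold in DKO thus depends on the control array. With the labels exchanged, the other WT array would be the G2KO-labelled array. There Ctsz was at a level of 16.2 and Ctsc at 0.0613, against 9.02 and 0.593 in DKO. Acp5 and Ctsk kept log2 ratios of at least 6.18 and 5.94 under every alternative. The lowest values of Acp5 in DKO, 6.27 and 6.18, came from normexp, whose offset lowers the ratios of dim probes, and Ctsc in DKO was 3.85 there. In all, 27 counts, 25 medians over the members and 96 list medians stayed within their limits. These were at most 1.5 times for counts and less than the SD between WT arrays for medians. The counts of 2 in the first comparison, against 3, are among the 27 but lie exactly at that limit. List medians were added after seeing the data.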

Other observations

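A further probe on chromosome 7 (95435428 to 95435487, build mm9) is named in the files only by a transcript identifier, and its description is that of dipeptidyl peptidase 1, the product of Ctsc. It was well above background on the DKO array alone, at a level of 0.0124, with levels of 0.00178, 0.00499 and 0.00265 on the G2KO-labelled array, the WT-labelled array and the DKO WT array. Its ratio for DKO over WT was at least 1.21-fold. Of the cathepsins expressed mainly in placenta, Cts7, Cts8, Ctsj, Ctsq and Ctsr were not well above background on any array, while Ctsm was at 0.0130 to 0.0173 on all 4 and Cts6 was above background on the WT-labelled array alone, at 0.0222. Cts3 was above background on the DKO array alone, at 0.0162.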
